A study of Homo sapiens with 12 samples.

Results

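MV3 melanoma cells kept in medium from M1 macrophages were set directly against the same cells kept in medium from M2 macrophages. The comparison took the 3 libraries labelled M1 and the 3 labelled M2, 6 of the 12 samples in the series, and covered all 14088 genes that passed the filter on low counts. MV3 is an established human line that came from a lymph node metastasis. The cells spent 3 h in medium with 1% serum and then 24 h in the conditioned medium before RNA was taken. Both media came from cells of the THP-1 monocyte line that had been differentiated into macrophages with PMA, a phorbol ester. M1 macrophages were then polarized with LPS and IFNγ, and M2 macrophages with IL4 and IL13, so the media differed in the polarizing agents and in what the macrophages released. Carry-over of those agents into the media was not measured. M0, medium of differentiated macrophages that were not polarized, and Ctrl, fresh medium that no cells had conditioned, are cited here only as levels, with 3 libraries each. All groups are of 1 melanoma line and 1 macrophage line. Whether the 3 replicates of a medium were grown apart is not in the labels, and so a p-value here reflects the scatter among these libraries, part of which may be technical.

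Interferon-gamma acts through its receptor and JAK kinases and lipopolysaccharide through Toll-like receptor 4 and NF-kB, and macrophages given both release TNF, interleukin 1 and chemokines that drive NF-kB in neighbouring cells. Interleukin 4 and interleukin 13 act through receptors that contain IL4R and through STAT6, a factor that binds palindromic TTC and GAA half-sites. YAP and its partners of the TEAD family are transcriptional regulators that respond to adhesion and to tension in the actin cytoskeleton, and CTGF, AXL and MYOF are among the genes they are known for.

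The 250 bases before the RefSeq start of 5 genes (build GRCh38.p14) are shown because these genes carry the contrast. CISH, TNC and ST8SIA1 were higher in M2, and TNFAIP3 and CXCL8 were higher in M1. Each is written 5′ to 3′ on the gene's own strand and ends just before the start. Capitals mark matches on either strand to a STAT-type motif (TTCNNNGAA), a STAT6-type motif (TTC and GAA with 4 bases of any kind between), an interferon response element (GAAA and GAAA with 2 bases between), the AP-1 motif (TGANTCA) or the kB consensus (GGGRNNYYCC). Here R is A or G, Y is C or T and N is any base. A match is not a shown binding site.
CISH (chr3:50611775-50612024, minus strand): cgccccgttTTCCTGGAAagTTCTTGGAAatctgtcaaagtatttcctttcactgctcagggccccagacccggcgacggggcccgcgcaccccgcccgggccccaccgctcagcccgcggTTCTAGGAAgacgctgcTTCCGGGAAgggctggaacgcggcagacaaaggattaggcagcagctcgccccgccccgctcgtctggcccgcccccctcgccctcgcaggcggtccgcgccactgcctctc
TNC (chr9:115118158-115118407, minus strand): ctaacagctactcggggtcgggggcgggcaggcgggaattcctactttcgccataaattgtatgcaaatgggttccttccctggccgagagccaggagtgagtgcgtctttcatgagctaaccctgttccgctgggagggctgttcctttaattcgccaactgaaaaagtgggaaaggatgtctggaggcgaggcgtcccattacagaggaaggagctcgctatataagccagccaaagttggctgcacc
ST8SIA1 (chr12:22334708-22334957, minus strand): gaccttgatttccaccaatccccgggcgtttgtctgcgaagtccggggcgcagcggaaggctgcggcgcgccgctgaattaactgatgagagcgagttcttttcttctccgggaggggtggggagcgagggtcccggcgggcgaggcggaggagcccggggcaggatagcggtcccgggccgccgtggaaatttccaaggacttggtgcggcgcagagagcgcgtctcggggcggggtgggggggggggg
TNFAIP3 (chr6:137867009-137867258, plus strand): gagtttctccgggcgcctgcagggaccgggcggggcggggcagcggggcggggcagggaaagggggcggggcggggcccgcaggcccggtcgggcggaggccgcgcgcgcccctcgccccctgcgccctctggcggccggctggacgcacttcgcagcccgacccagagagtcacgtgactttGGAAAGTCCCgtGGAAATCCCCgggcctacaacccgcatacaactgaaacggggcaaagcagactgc
CXCL8 (chr4:73740319-73740568, plus strand): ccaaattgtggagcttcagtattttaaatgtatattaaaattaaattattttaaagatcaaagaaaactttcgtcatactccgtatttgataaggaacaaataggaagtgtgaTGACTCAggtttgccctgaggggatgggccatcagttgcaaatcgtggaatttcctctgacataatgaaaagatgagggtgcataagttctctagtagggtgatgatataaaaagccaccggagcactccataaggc

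All 5 windows lie partly or wholly inside the longer gene spans that GENCODE 29 gives. The CISH window held 4 matches to the STAT-type motif, which begin 241, 230, 129 and 112 bases before the start, and none to the STAT6-type motif. The TNFAIP3 window held 2 kB matches that begin 67 and 55 bases before the start, and the CXCL8 window held 1 AP-1 match that begins 137 bases before it. Only exact matches are marked. In the CXCL8 window the stretch tggaatttcc differs from the kB consensus in its first base and is unmarked. None of the 5 motifs was found in the TNC and ST8SIA1 windows, which says only that these letters are not there. Among all 35116 promoter windows of this length, 6.57% held the STAT-type motif, 5.38% the STAT6-type motif, 3.02% the interferon response element, 6.57% the AP-1 motif and 9.96% the kB consensus, with both strands read and overlapping matches counted. Only 126 of the 184 genes at least 2-fold higher in M2 had a window, 68.5%, so shares were not compared between gene sets.

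Libraries held 27934789 to 40066328 counts. The first component of the 6 libraries carried 74.6% of the variance and parted the media. M1 replicate 2 stood apart from the other M1 libraries on the second component (10.1%), at -23.7 against 11.7 and 13.9. In M2 replicate 2, 3759 genes were detected that were at 0 in the other 11 libraries, against 160 to 453 such genes in each of those. Calls of named genes that were lost without both libraries are given beside those genes. None of 22 macrophage markers reached 1 CPM in any of the 6 libraries, 10 to 12 of them were at 0 reads in M1 libraries and 8 to 14 in M2 libraries, their summed level was 1.86 to 2.02 CPM in M1 and 1.57 to 2.34 CPM in M2, and TYROBP and AIF1, 2 defining markers, had 0 reads in all 6. Of 27 melanocyte markers 9 to 10 reached 1 CPM, with a summed level of 203 to 209 CPM in M1 and 221 to 236 CPM in M2. Of the defining ones, TYR and S100B had 0 reads in all 6 libraries and SOX10, PMEL and MLANA at most 2 in any library. These markers of pigment cells were thus near absent from the melanoma line. Markers of melanoma of the dedifferentiated kind were mixed. AXL and EGFR were abundant, whereas NGFR was near absent, with at most 1 read in any library. SOX9 and WNT5A lay between, with M1 means of 12.7 and 87.9 CPM and M2 means of 15.4 and 46.4 CPM. CPM are read counts scaled to the library total. In bulk RNA a change in the share of cells and a change in RNA per cell cannot be told apart.

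In all, 4572 of the 14088 genes differed between M1 and M2 (32.5%, edgeR's quasi-likelihood test with Benjamini-Hochberg adjusted p under 0.05). Of these, 2332 were higher in M2 (16.6% of genes tested) and 2240 higher in M1 (15.9%). Groups did not overlap in 3642 genes toward M2 (25.9%) and 3416 toward M1 (24.2%). Most genes named below were picked among called genes without overlap. Lack of overlap in them follows from that choice and is not a separate result. The 2 directions differed in size. The median fold among genes higher in M2 was 1.33, and 72.8% of them lay under 1.5-fold. Among genes higher in M1 the median fold was 1.38, and 60.8% lay under 1.5-fold. At least 2-fold differences numbered 184 toward M2 (1.31%) and 498 toward M1 (3.53%), and 10 genes toward M2 and 99 toward M1 passed 8-fold. Without both second replicates, 1658 genes were higher in M2 and 1793 in M1, with 142 and 552 at 2-fold or more. Leaving out M2 replicate 1 alone left 1528 higher in M2. Of the genes at 2-fold or more toward M2, 139 were protein-coding, 20 lincRNA and 13 antisense genes, against 412, 34 and 24 toward M1. The shares of these types among all genes tested were not counted, so nothing is read from these numbers.

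Setting aside a list of 155 tested interferon-stimulated and antigen presentation genes, 13933 genes remained, of which 4433 were called (31.8%). Among them 2331 were higher in M2 (16.7%) and 2102 in M1 (15.1%), and at 2-fold or more 184 (1.32%) and 390 (2.8%). The interferon list itself held 138 members higher in M1, 16 not called and 1 higher in M2, RBCK1, a subunit of the linear ubiquitin ligase, whose call was lost without M1 replicate 1, M1 replicate 2, M2 replicate 1, M2 replicate 2 or M2 replicate 3, without both second replicates and with limma on the deposited values (adjusted p = 0.0501 to 0.193). Genes on the list made up 108 of the 498 genes at 2-fold or more toward M1 and none of the 184 toward M2. The list was written by hand and may be incomplete. Genes outside it may also respond to interferon, which was not tested.

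**Figure D1:**
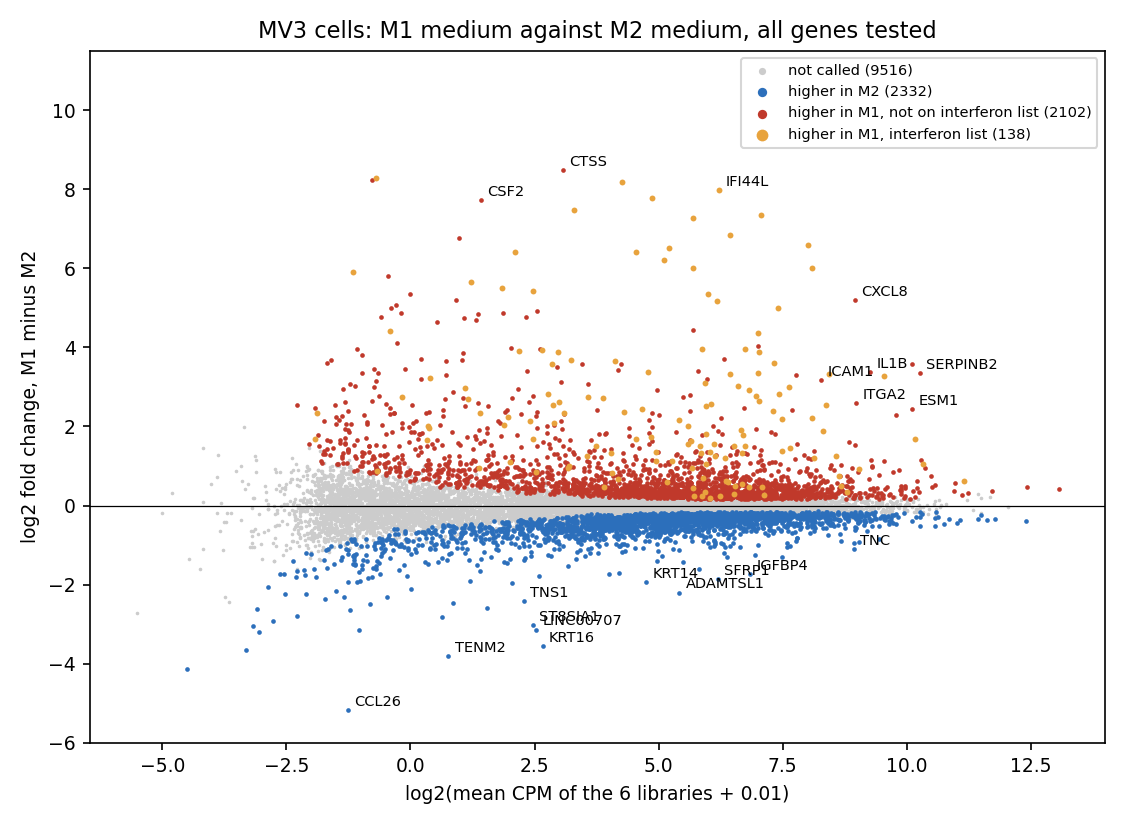
Log2 fold change of M1 minus M2 (vertical) against the mean level over the 6 libraries in CPM (horizontal, log2 scale), 1 point per gene. The points toward M2 (blue, below 0) reach a log2 difference of 5.17, in CCL26, and those toward M1 reach 8.48, in CTSS.

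The genes that differed most toward M2 at 1 CPM or more were TENM2, KRT16, LINC00707 and ST8SIA1. TENM2 (chr5:167284799-168264157, plus strand; GENCODE 29 on GRCh38, as for all gene coordinates here) encodes teneurin 2, a transmembrane protein that joins synapses by binding latrophilins. It stood at 0.228, 0.160 and 0.273 CPM in M1 and 4.26, 2.80 and 2.40 CPM in M2 (log2 difference 3.81 ± 0.30 SE, adjusted p = 6.31e-08). Every M2 library lay above every M1 library, and the level was 0.714 ± 0.0246 CPM in M0 and 0.751 ± 0.133 CPM in Ctrl. KRT16 (chr17:41609778-41615899, minus strand), a keratin of stressed epithelia, stood at 1.24, 0.640 and 1.04 CPM in M1 and 11.4, 10.9 and 12.7 CPM in M2 (log2 difference 3.55 ± 0.27 SE, adjusted p = 6.61e-09). The groups did not overlap, M0 lay between them at 5.54 ± 1.69 CPM, and Ctrl was below both at 0.206 ± 0.0208 CPM.

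LINC00707 (chr10:6779549-6879450, plus strand), a long intergenic noncoding RNA, had 1.45, 0.800 and 1.25 CPM in M1 and 12.2, 9.44 and 9.62 CPM in M2 (log2 difference 3.14 ± 0.27 SE, adjusted p = 1.92e-08). Its Ctrl level was higher than any of the 6, 44.4 ± 3.54 CPM, so M2 was the medium nearer to fresh medium. ST8SIA1 (chr12:22063773-22437041, minus strand), whose promoter window is printed above, encodes GD3 synthase, which adds the second sialic acid to ganglioside GM3. It had 1.07, 0.960 and 1.58 CPM in M1 and 11.1, 8.55 and 9.87 CPM in M2 (log2 difference 3.03 ± 0.24 SE, adjusted p = 4.52e-08). The M2 libraries lay above the M1 libraries and also above M0 and Ctrl, which stood at 3.21 ± 0.876 CPM in M0 and 2.01 ± 0.368 CPM in Ctrl. ST8SIA1 overlaps CMAS on the opposite strand, and how the reads were assigned by strand is not given in the sources used here.

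CCL26, the chemokine eotaxin-3 and a known target of IL4 and IL13 signalling, was the gene with the largest difference toward M2 on the log2 scale. It had 2 reads over the 3 M1 libraries and 76 over the 3 M2 libraries, a ratio of 43.9 with an exact 95% interval of 11.7 to 369 that covers counting error only. The M2 libraries stood at 1.06, 0.709 and 0.608 CPM and the M1 libraries at 0, 0.0320 and 0.0273 CPM, with an adjusted p of 7.91e-06. CISH, a STAT-induced inhibitor of cytokine receptors whose window is printed above, was low in both media, at 0.457, 0.224 and 0.191 CPM in M1 and 0.949, 1.21 and 0.823 CPM in M2 (log2 difference 1.73 ± 0.35 SE, adjusted p = 0.000704). Its M1 and M2 libraries did not overlap. It overlaps MAPKAPK3 on the opposite strand.

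Other genes with large differences toward M2 were of several kinds. LINC00460 and LINC01133, both long noncoding RNAs, differed by log2 2.81 and 2.60. LDB2, a cofactor of LIM-domain proteins, had 0.546 ± 0.208 CPM in M1 against 3.04 ± 0.417 CPM in M2 (log2 2.45, adjusted p = 3.92e-07). TNS1, tensin 1, which links integrins to actin, had 2.11, 0.864 and 1.53 CPM in M1 and 9.11, 7.73 and 7.76 CPM in M2 (log2 difference 2.42 ± 0.37 SE, adjusted p = 1.65e-07). ADAMTSL1, a secreted matrix protein of the ADAMTS-like family, had 18.8, 11.46 and 15.3 CPM in M1 and 74.9, 63.5 and 72.0 CPM in M2 (log2 difference 2.202 ± 0.22 SE, adjusted p = 6.74e-09), and its lowest M2 library exceeded its highest M1 library. In M0 and Ctrl it stood at 73.7 ± 3.18 CPM in M0 and 72.0 ± 9.21 CPM in Ctrl, so the M1 libraries were the low ones. PRAG1, a pseudokinase, differed by log2 1.96.

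SFRP1, a secreted WNT inhibitor, had 28.9, 34.9 and 31.5 CPM in M1 and 118, 111 and 114 CPM in M2 (log2 difference 1.85 ± 0.08 SE, adjusted p = 3.41e-07). Both groups were below Ctrl, which stood at 1016 ± 141 CPM. The remaining genes named by size toward M2, AL035665.1, AC097451.1 and ZFHX4-AS1, are noncoding and lay at log2 2.31, 2.11 and 1.91.

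**Figure D2:**
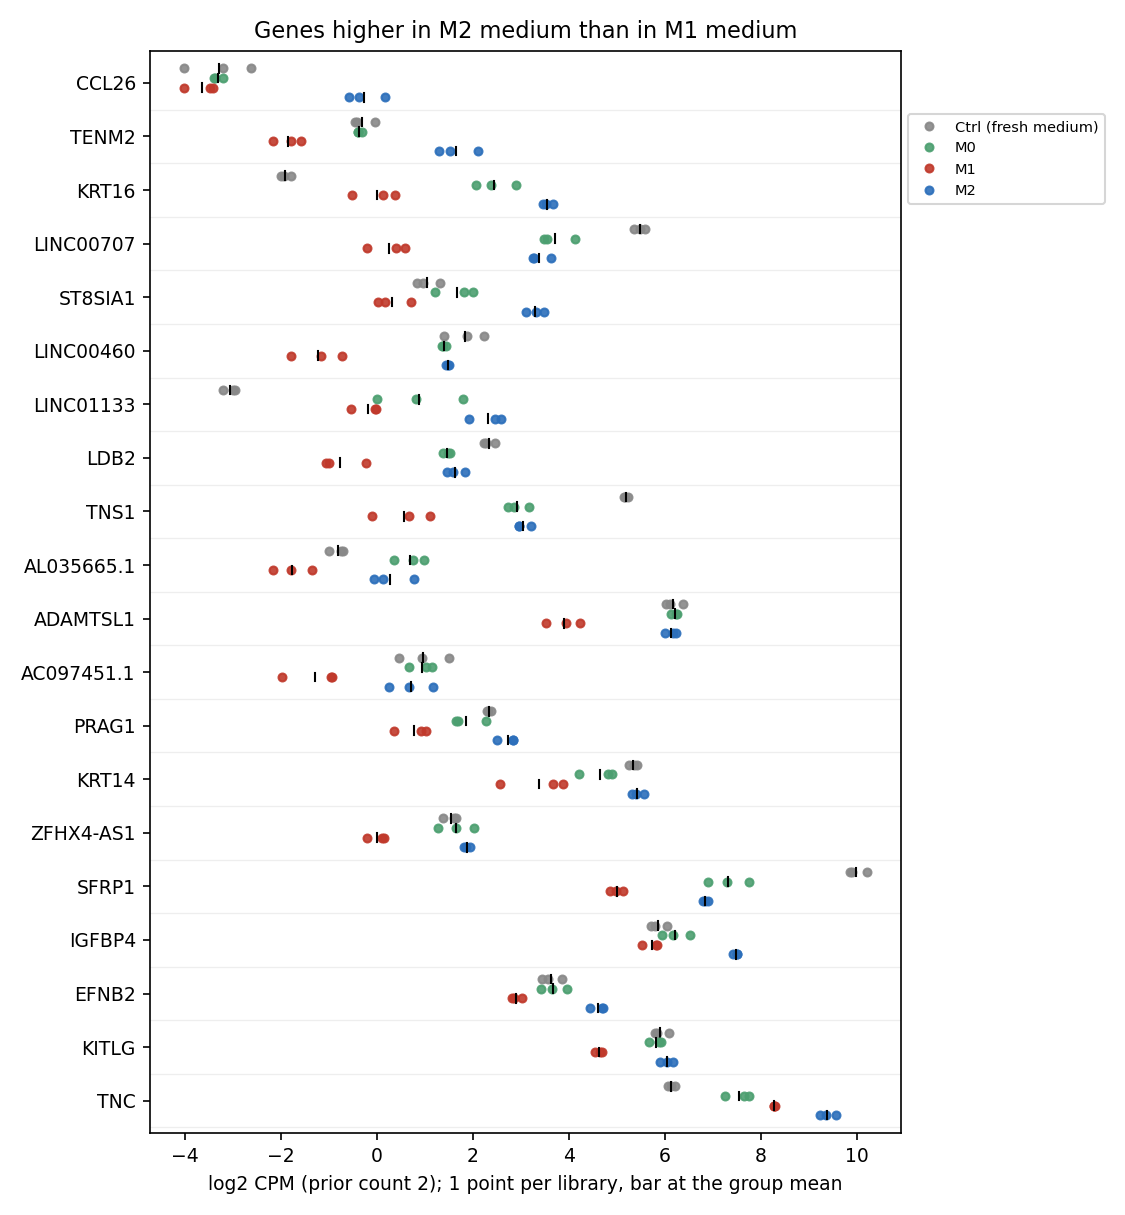
Log2 CPM (horizontal, prior count 2) of 20 genes higher in M2 than in M1, with 1 point per library and a bar at each group mean, coloured by medium. The blue M2 points lie to the right of the red M1 points in every row, while the grey Ctrl points lie on the M2 side for LINC00707, TNS1 and SFRP1 and on the M1 side for TNC.

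Gene lists were read by how many members passed the test in each direction, beside 15.9% and 16.6% of all genes and a median log2 difference of M1 minus M2 of -0.0255 over all 14088. The lists with the largest shares toward M2 were the actin cytoskeleton (17 of 27), keratins and epithelial junction genes (10 of 19), YAP and TEAD genes (13 of 27), DNA replication (19 of 42) and NAD and tryptophan metabolism (9 of 20). The largest shares toward M1, apart from the interferon list, were secreted cytokines (19 of 21), NF-kB regulators (20 of 24), folding in the endoplasmic reticulum (21 of 29) and matrix proteases and inhibitors (19 of 30). CCL26 was not on the cytokine list.

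**Figure D3:**
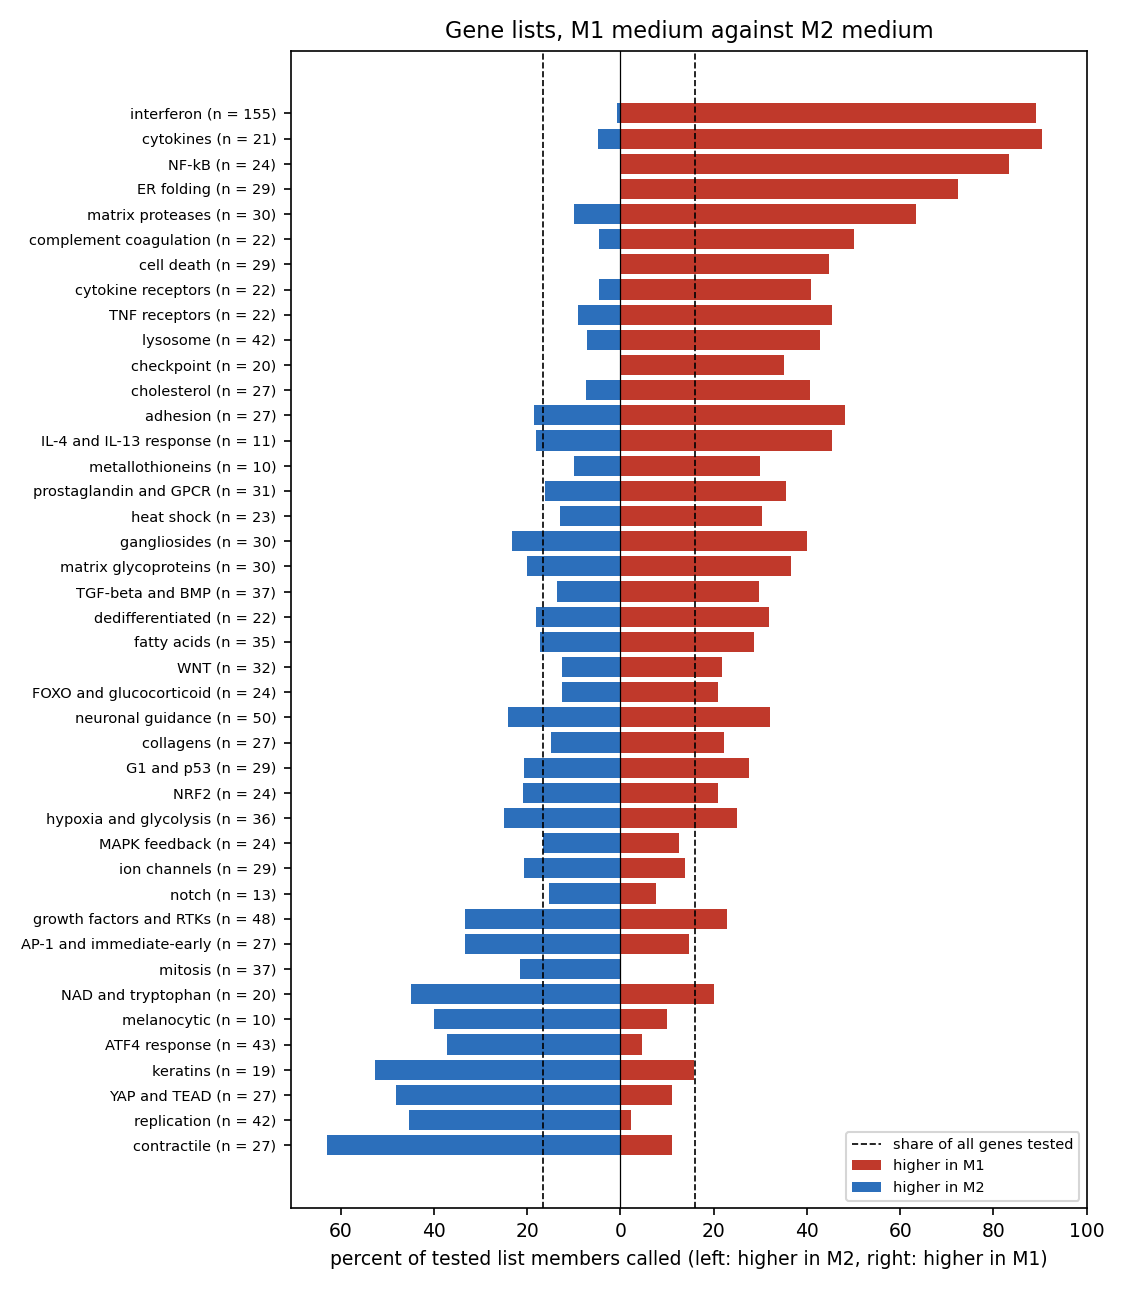
Percent of the tested members of 42 gene lists that were called higher in M2 (blue, left) or higher in M1 (red, right), with the number tested beside each name and dashed lines at 16.6% and 15.9%, the shares of all genes. The interferon list reaches 138 of 155 toward M1 and the actin cytoskeleton list 17 of 27 toward M2.

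Keratins were the list with the highest median toward M2. Of 19 tested members 10 were higher in M2, 3 in M1 and 6 not called, with a median log2 difference of M2 minus M1 of 0.57. KRT14, a keratin of basal epithelial cells, had 14.6, 5.82 and 12.7 CPM in M1 and 47.1, 39.6 and 41.7 CPM in M2 (log2 difference 1.94 ± 0.42 SE, adjusted p = 1.26e-05). M1 replicate 2 was the lowest library, and no M1 library reached the M2 libraries. KRT18, which pairs with KRT8 in simple epithelia, had 26.7, 27.4 and 29.9 CPM in M1 and 85.5, 85.0 and 84.0 CPM in M2 (log2 difference 1.60 ± 0.05 SE, adjusted p = 4e-11), with little spread in either group. KRT8, KRTAP2-3, KRT17 and KRT34 followed at log2 1.33, 1.31, 0.92 and 0.72. These 4 were chosen after their values were seen. KRT14, KRT16 and KRT17 are closely related genes, so reads may be split among them and their single values are uncertain. How many reads they share was not measured. KRT18 and KRT8 overlap each other on opposite strands. Without both second replicates the list again had 10 members higher in M2.

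The members that went the other way were KRT7, CLDN1 and VIM. KRT7, a keratin of glandular epithelia, had 12.96, 8.64 and 14.0 CPM in M1 and 3.42, 2.73 and 2.503 CPM in M2 (log2 difference 2.03 ± 0.25 SE, adjusted p = 7.54e-07). CLDN1, the tight junction protein claudin 1, had 38.3, 25.8 and 35.9 CPM in M1 and 3.55, 2.66 and 3.08 CPM in M2 (log2 difference 3.42 ± 0.21 SE, adjusted p = 1.95e-09). In both genes every M1 library was above every M2 library. VIM, the intermediate filament vimentin, was abundant in both media at 9749.7 ± 612 CPM in M1 against 7312 ± 203 CPM in M2 (log2 0.42, adjusted p = 0.000137).

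Genes of the actin cytoskeleton were higher in M2 in 17 of 27 cases, higher in M1 in 3 and not called in 7 (median log2 M2 minus M1 0.27), and in 14 without both second replicates. FLNC, filamin C, which crosslinks actin, had 104, 86.9 and 119.6 CPM in M1 and 229, 262 and 277 CPM in M2 (log2 difference 1.30 ± 0.16 SE, adjusted p = 4.19e-06). TAGLN, transgelin or SM22, a calponin-family protein of smooth muscle, had 18.7, 19.4 and 21.1 CPM in M1 and 40.5, 52.9 and 49.9 CPM in M2 (log2 difference 1.28 ± 0.13 SE, adjusted p = 9.53e-05). Neither gene's groups overlapped. ZYX, zyxin of focal adhesions, stood at 256 ± 41.0 CPM in M1 against 382 ± 11.7 CPM in M2 (log2 0.58, adjusted p = 0.000426). MYH9, the heavy chain of non-muscle myosin IIA, and FLNA, filamin A, chosen after their values were seen, had log2 differences of 0.43 and 0.33. The FLNA call was lost without M1 replicate 2 or M2 replicate 1 and without both second replicates (adjusted p = 0.0526 to 0.0759). TAGLN overlaps PCSK7 and ZYX overlaps EPHA1 on the opposite strand. The 3 members higher in M1 were TPM1, a tropomyosin, at 196, 214 and 195 CPM in M1 and 86.7, 103 and 95.8 CPM in M2 (log2 difference 1.08 ± 0.09 SE, adjusted p = 2.52e-08), and, at log2 0.73 and 0.28, TAGLN2, a transgelin paralog, and MYLK, myosin light chain kinase.

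YAP and TEAD genes followed a like split, with 13 of 27 higher in M2, 3 in M1 and 11 not called (median log2 M2 minus M1 0.20). MYOF, the membrane repair protein myoferlin, had 483, 521 and 475 CPM in M1 and 851, 906 and 907 CPM in M2 (log2 difference 0.85 ± 0.05 SE, adjusted p = 2.06e-08). CTGF, a matricellular protein, had 475, 432 and 477 CPM in M1 and 699.8, 704 and 746 CPM in M2 (log2 difference 0.63 ± 0.05 SE, adjusted p = 0.000271), against 100.1 ± 14.8 CPM in Ctrl. TEAD4, a DNA-binding partner of YAP, had 42.6 ± 2.43 CPM in M1 against 66.6 ± 2.22 CPM in M2 (log2 0.64, adjusted p = 1.83e-06). In each of the 3 genes all M2 libraries lay above all M1 libraries. The textbook target CYR61 went the other way, at 1085, 1108 and 1050.2 CPM in M1 and 878, 954 and 909 CPM in M2 (log2 difference 0.24 ± 0.04 SE, adjusted p = 0.0155), and its call was lost without M2 replicate 3 (adjusted p = 0.0521). Also higher in M1 were NUAK2, an AMPK-related kinase, at log2 1.24, and AMOTL1, an angiomotin that binds YAP, at log2 0.47. Without both second replicates 12 members were higher in M2 and 3 in M1.

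**Figure D4:**
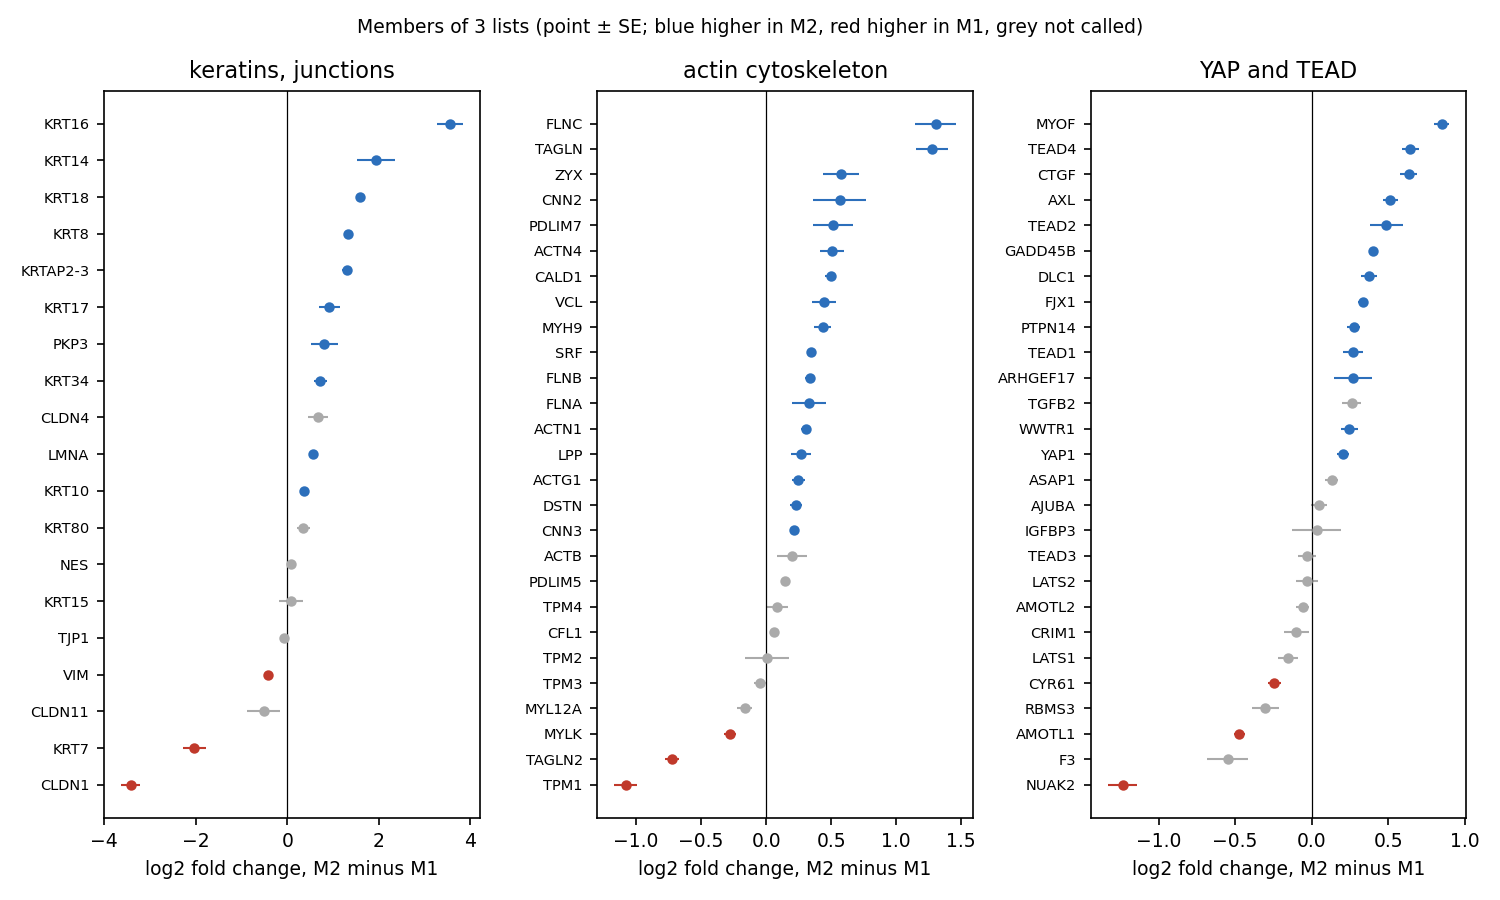
Log2 fold change of M2 minus M1 (horizontal) with its SE for every tested member of 3 lists, 1 row per gene, blue for genes called higher in M2, red for higher in M1 and grey for not called. KRT16, FLNC and MYOF head their panels, and CLDN1, TPM1 and NUAK2 stand at the M1 end.

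Secreted growth factors and their receptors were mixed, with 16 of 48 higher in M2, 11 in M1 and 21 not called. Among ligands higher in M2, FGF1, acidic fibroblast growth factor, had 9.16, 7.84 and 9.11 CPM in M1 and 29.4, 26.6 and 28.5 CPM in M2 (log2 difference 1.69 ± 0.08 SE, adjusted p = 1.71e-07). KITLG, the ligand of the receptor KIT on melanocytes, had 25.6, 24.9 and 23.3 CPM in M1 and 71.8, 59.4 and 65.9 CPM in M2 (log2 difference 1.42 ± 0.09 SE, adjusted p = 2.13e-08). IGFBP4, which binds and restrains insulin-like growth factors, had 56.8, 45.9 and 56.2 CPM in M1 and 169.9, 181 and 179.7 CPM in M2 (log2 difference 1.74 ± 0.10 SE, adjusted p = 3.95e-08). Each had 3 M2 libraries above 3 M1 libraries. IGFBP4 in M2 also exceeded its M0 and Ctrl levels, 74.4 ± 15.4 CPM in M0 and 57.8 ± 6.78 CPM in Ctrl, while KITLG in M2 overlapped them, 56.6 ± 5.31 CPM in M0 and 59.99 ± 7.04 CPM in Ctrl, and M1 was the low group. VEGFA, the main angiogenic factor, differed by log2 0.55 and BDNF, a neurotrophin chosen after its values were seen, by log2 0.88. FGF1, VEGFA and BDNF each overlap a noncoding gene on the opposite strand.

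Among receptors, AXL, a TAM-family kinase of invasive melanoma, had 1177, 1298 and 1286 CPM in M1 and 1763, 1778 and 1837 CPM in M2 (log2 difference 0.52 ± 0.05 SE, adjusted p = 0.000334), with both groups under the Ctrl level of 2444 ± 384 CPM. ERBB3, a neuregulin receptor, was low at 0.584 ± 0.160 CPM in M1 against 1.16 ± 0.0438 CPM in M2 (log2 0.96, adjusted p = 0.00857), and its call was lost without both second replicates (adjusted p = 0.0761). EGFR was not called, with 701 ± 4.65 CPM in M1 against 678 ± 22.9 CPM in M2 and a log2 difference of M1 minus M2 of 0.05 (95% interval -0.03 to 0.13). The ligands that went toward M1 were led by VEGFC, the lymphangiogenic factor, at 186, 178 and 174 CPM in M1 and 32.98, 31.7 and 33.3 CPM in M2 (log2 difference 2.46 ± 0.04 SE, adjusted p = 1.37e-12), GDNF, a ligand of RET, at 50.2 ± 4.55 CPM in M1 against 23.2 ± 0.940 CPM in M2 (log2 1.11, adjusted p = 1.15e-07), and IGF2, at 3.03 ± 0.416 CPM in M1 against 0.247 ± 0.156 CPM in M2 (log2 3.65, adjusted p = 1.4e-07). VEGFA and VEGFC thus differed in opposite directions between the media.

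Axon guidance and synaptic adhesion genes were also split, with 12 of 50 higher in M2, 16 in M1 and 22 not called. EFNB2, an ephrin ligand of EPHB receptors, had 7.15, 8.0001 and 6.96 CPM in M1 and 21.6, 26.1 and 25.5 CPM in M2 (log2 difference 1.73 ± 0.11 SE, adjusted p = 1.64e-07), and DCC, a netrin receptor, had 0.634, 0.672 and 0.709 CPM in M1 and 2.14, 1.70 and 1.75 CPM in M2 (log2 difference 1.48 ± 0.11 SE, adjusted p = 0.00102). NTN4, netrin 4 of basement membranes, had 363, 296 and 343 CPM in M1 and 683, 602 and 641 CPM in M2 (log2 difference 0.94 ± 0.10 SE, adjusted p = 3.96e-06), and PLXNA2, a semaphorin receptor chosen after its values were seen, had 48.1 ± 5.78 CPM in M1 against 111 ± 4.18 CPM in M2 (log2 1.203, adjusted p = 6.05e-07). Groups did not overlap in any of these 4. Toward M1 the leading members were ligands. SEMA6D, a transmembrane semaphorin, had 24.6, 16.2 and 23.3 CPM in M1 and 2.63, 1.95 and 3.08 CPM in M2 (log2 difference 3.06 ± 0.27 SE, adjusted p = 7.2e-08). SEMA3C, a secreted semaphorin, had 132 ± 8.41 CPM in M1 against 47.1 ± 2.81 CPM in M2 (log2 1.49, adjusted p = 2.54e-07), and EFNA1, an ephrin-A, had 1.67 ± 0.477 CPM in M1 against 0.527 ± 0.106 CPM in M2 (log2 1.69, adjusted p = 0.000237).

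Matrix and adhesion genes higher in M2 were led, by the gap in CPM, by TNC (chr9:115019578-115118257, minus strand), tenascin C, an extracellular matrix glycoprotein of tissue remodelling. TNC stood at 309.7, 308 and 311 CPM in M1 and 751, 597 and 649 CPM in M2 (log2 difference 1.10 ± 0.10 SE, adjusted p = 1.23e-06). The M1 libraries differed little from each other and all lay below the M2 libraries. Its M0 and Ctrl levels were 189 ± 33.2 CPM in M0 and 70.1 ± 3.49 CPM in Ctrl, below both polarized media. TNC overlaps DEC1 on the opposite strand. LAMA5, a laminin chain, had 43.9 ± 10.9 CPM in M1 against 76.3 ± 3.22 CPM in M2 (log2 0.80, adjusted p = 0.0013), and COL8A1, a collagen chain, had 9.09 ± 1.74 CPM in M1 against 18.6 ± 4.85 CPM in M2 (log2 1.03, adjusted p = 0.000321).

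ITGA6, the laminin-binding integrin subunit, had 279.6, 303 and 269.5 CPM in M1 and 513, 543 and 542 CPM in M2 (log2 difference 0.91 ± 0.06 SE, adjusted p = 8.78e-06), and BCAM, a laminin receptor, had 2.10 ± 0.444 CPM in M1 against 4.51 ± 0.555 CPM in M2 (log2 1.10, adjusted p = 0.000146). The collagen-binding subunit ITGA2 differed in the other direction, at 947, 756 and 899.5 CPM in M1 and 158, 128 and 146 CPM in M2 (log2 difference 2.59 ± 0.13 SE, adjusted p = 1.92e-08). Its M1 level lay above Ctrl, 366 ± 67.4 CPM, and its M2 level below it. LAMB3 and LAMA3, which encode laminin chains, were higher in M1, at log2 3.39 and 1.97, whereas LAMA5 was higher in M2. ITGB8, a subunit of a receptor for latent TGF-beta, was higher in M1 at 6.45 ± 1.43 CPM in M1 against 1.22 ± 0.217 CPM in M2 (log2 2.41, adjusted p = 1.28e-06).

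Of 11 tested genes of the IL4 and IL13 response, CCL26 and CISH were higher in M2, 5 were higher in M1 and 4 were not called. IL4R, the shared receptor subunit, was higher in M1 at 83.1, 66.6 and 78.8 CPM in M1 and 54.9, 57.0 and 59.98 CPM in M2 (log2 difference 0.41 ± 0.10 SE, adjusted p = 0.00143). TGM2, transglutaminase 2 and often used as an M2 marker in macrophages, was higher in M1 at 305, 255 and 328 CPM in M1 and 115, 142 and 136 CPM in M2 (log2 difference 1.18 ± 0.14 SE, adjusted p = 1.77e-07). SERPINB2, an inhibitor of plasminogen activators, was likewise higher in M1, 2685, 1852 and 2178 CPM in M1 and 287, 177 and 197 CPM in M2 (log2 difference 3.34 ± 0.26 SE, adjusted p = 2.03e-08). No M1 library of these 3 genes overlapped M2. IL13RA2, a high-affinity receptor for IL13 chosen after its values were seen, was abundant and not called, at 275 ± 37.1 CPM in M1 against 249 ± 23.2 CPM in M2 (log2 M1 minus M2 0.15, 95% interval -0.23 to 0.52, adjusted p = 0.335).

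Ganglioside and sphingolipid genes comprised 7 higher in M2, 12 higher in M1 and 11 not called of 30. Besides ST8SIA1, SPTLC3, a subunit of serine palmitoyltransferase, was higher in M2 at 0.420 ± 0.123 CPM in M1 against 1.47 ± 0.207 CPM in M2 (log2 1.79, adjusted p = 0.000278), below its Ctrl level of 11.4 ± 0.983 CPM. ST6GALNAC6, a sialyltransferase, had 24.0 ± 0.698 CPM in M1 against 35.7 ± 0.853 CPM in M2 (log2 0.57, adjusted p = 7.6e-05). UGCG, glucosylceramide synthase, which makes the first glycolipid of the pathway, was higher in M1 at 178, 189.8 and 174 CPM in M1 and 128, 126 and 126 CPM in M2 (log2 difference 0.51 ± 0.04 SE, adjusted p = 0.000256). The count toward M1 was 7 without M2 replicate 1 and 7 without M2 replicate 3.

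DNA replication genes had 19 of 42 members higher in M2, 1 in M1 and 22 not called (median log2 M2 minus M1 0.26). UHRF1, which recruits DNA methylation to new strands, had 25.5, 22.8 and 24.6 CPM in M1 and 38.7, 41.1 and 42.2 CPM in M2 (log2 difference 0.74 ± 0.06 SE, adjusted p = 1.51e-05), and its groups did not overlap. POLD1, the catalytic subunit of DNA polymerase delta, had 9.29 ± 3.03 CPM in M1 against 16.0 ± 2.82 CPM in M2 (log2 0.78, adjusted p = 0.0297), and lost its call without M1 replicate 2, M2 replicate 1 or M2 replicate 3, with DESeq2 and without both second replicates (adjusted p = 0.0558 to 0.148). The count toward M2 was 12 without M2 replicate 1. CCNE2, a cyclin of the start of S phase, was the member higher in M1 (log2 0.43, adjusted p = 0.0492), and its call was lost without M1 replicate 1, M1 replicate 2, M1 replicate 3, M2 replicate 1 or M2 replicate 3 and with the 6 libraries alone (adjusted p = 0.0522 to 0.207).

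Mitosis genes had 8 of 37 members higher in M2, none in M1 and 29 not called (median log2 M2 minus M1 0.27). The share toward M2, 21.6%, was near the 16.6% of all genes. The list median had an SD of 0.24 between replicates, against 0.061 for DNA replication. PLK1, a mitotic kinase, had 43.5, 57.4 and 48.4 CPM in M1 and 96.1, 67.9 and 71.4 CPM in M2 (log2 difference 0.66 ± 0.20 SE, adjusted p = 0.00759), and M2 replicate 1 was the highest library. Its call was lost without M2 replicate 1 (adjusted p = 0.0612). The count toward M2 was 1 without M2 replicate 1, 3 without M1 replicate 1, 3 without M1 replicate 3, 13 without both second replicates and 20 with no filter on low counts. In Ctrl PLK1 stood at 313 ± 2.43 CPM. Of G1 and p53 genes, CDKN1A, the p21 inhibitor of cyclin-dependent kinases, was higher in M1 at 78.3, 72.5 and 75.7 CPM in M1 and 23.2, 24.2 and 24.6 CPM in M2 (log2 difference 1.65 ± 0.04 SE, adjusted p = 5.83e-06), and CCND2, cyclin D2, was higher in M2 at 125 ± 9.27 CPM in M1 against 167 ± 16.0 CPM in M2 (log2 0.42, adjusted p = 0.0054).

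Stress pathways of protein synthesis parted in direction. ER folding genes were higher in M1 in 21 of 29 cases, in M2 in none, and not called in 8 (median log2 M2 minus M1 -0.33). DNAJB9, a co-chaperone of BiP, had 76.0, 81.0 and 75.9 CPM in M1 and 38.4, 43.1 and 41.7 CPM in M2 (log2 difference 0.92 ± 0.06 SE, adjusted p = 5.28e-07). DNAJC3, another BiP partner and an inhibitor of the kinase PERK, had 117, 124 and 115 CPM in M1 and 63.9, 71.2 and 68.3 CPM in M2 (log2 difference 0.80 ± 0.06 SE, adjusted p = 3.15e-05). PDIA4, a disulfide isomerase, had 167 ± 6.14 CPM in M1 against 106 ± 3.01 CPM in M2 (log2 0.65, adjusted p = 1.48e-06). In all 3 the M1 libraries were above the M2 libraries. Without both second replicates 18 members were higher in M1.

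Genes of the ATF4 amino acid response were higher in M2 in 16 of 43 cases, in M1 in 2 and not called in 25 (median log2 M2 minus M1 0.12). TRIB3, a pseudokinase induced by ATF4, had 403, 371 and 406 CPM in M1 and 663, 565 and 582 CPM in M2 (log2 difference 0.62 ± 0.08 SE, adjusted p = 2.04e-05), and PYCR1, an enzyme of proline synthesis, had 184 ± 23.1 CPM in M1 against 276 ± 15.6 CPM in M2 (log2 0.58, adjusted p = 0.000315). Both stood above Ctrl, where TRIB3 had 22.1 ± 1.98 CPM. The count toward M2 was 7 with M2 replicate 1 left out, 10 with M2 replicate 3 left out and 9 without both second replicates. WARS, the tryptophanyl-tRNA synthetase and also an interferon-gamma target, was higher in M1 at 2556, 2986 and 2699 CPM in M1 and 1634, 1882 and 1835 CPM in M2 (log2 difference 0.62 ± 0.09 SE, adjusted p = 0.000264).

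NAD and tryptophan metabolism comprised 9 members higher in M2, 4 in M1 and 7 not called of 20. KYNU, kynureninase, which breaks down kynurenine, had 55.0, 54.7 and 55.8 CPM in M1 and 8.52, 6.88 and 6.40 CPM in M2 (log2 difference 2.92 ± 0.12 SE, adjusted p = 6.8e-11). NAMPT, the rate-limiting enzyme of NAD salvage, had 1710.0, 1819 and 1617 CPM in M1 and 806, 760.5 and 760.3 CPM in M2 (log2 difference 1.14 ± 0.06 SE, adjusted p = 9.95e-10). Both were higher in every M1 library. NNMT, which methylates nicotinamide and was chosen after its values were seen, had 149.5, 157 and 153 CPM in M1 and 286, 290.3 and 276 CPM in M2 (log2 difference 0.89 ± 0.03 SE, adjusted p = 2.49e-08), and AOX1, an oxidase that acts on the methylated product, had 23.0, 15.2 and 21.2 CPM in M1 and 45.2, 44.5 and 42.1 CPM in M2 (log2 difference 1.14 ± 0.18 SE, adjusted p = 1.11e-06). Both were higher in every M2 library.

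Hypoxia and glycolysis genes were evenly split, with 9 of 36 in each direction and 18 not called. Toward M2 were NDRG1, a stress-responsive gene, at 255 ± 25.8 CPM in M1 against 427 ± 20.5 CPM in M2 (log2 0.74, adjusted p = 0.000101), and PFKL, the liver-type phosphofructokinase, at 45.7 ± 9.03 CPM in M1 against 66.9 ± 2.15 CPM in M2 (log2 0.55, adjusted p = 0.00187). Toward M1 were BHLHE40, a repressor of the clock, at 50.6, 42.7 and 45.6 CPM in M1 and 12.2, 11.7 and 11.3 CPM in M2 (log2 difference 1.98 ± 0.08 SE, adjusted p = 1.36e-10), PFKFB4, a regulator of phosphofructokinase, at log2 1.199, and the prolyl hydroxylases of collagen P4HA1 and P4HA2, at log2 0.75 and 0.97.

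Immediate-early and AP-1 factors had 9 of 27 members higher in M2, 4 in M1 and 14 not called. JUN had 66.0, 62.0 and 69.6 CPM in M1 and 113, 118 and 119.6 CPM in M2 (log2 difference 0.83 ± 0.05 SE, adjusted p = 1.13e-06), EGR1 had 44.2 ± 3.63 CPM in M1 against 73.5 ± 2.74 CPM in M2 (log2 0.73, adjusted p = 8.71e-05), and KLF2, a zinc-finger factor of quiescent endothelium, had 4.57, 3.42 and 4.36 CPM in M1 and 8.98, 10.4 and 10.8 CPM in M2 (log2 difference 1.28 ± 0.15 SE, adjusted p = 9.78e-07). The groups of JUN and KLF2 did not overlap. JUNB, an AP-1 subunit of the same family as JUN, was higher in M1 at 38.4, 28.1 and 48.0 CPM in M1 and 26.8, 23.1 and 25.6 CPM in M2 (log2 difference 0.60 ± 0.23 SE, adjusted p = 0.00338), where M1 replicate 2 was the lowest of its group and closest to M2.

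Toward M1, NF-kB regulators were the most uniform list after the interferon and cytokine genes, with 20 of 24 members higher in M1, none in M2 and 4 not called (median log2 M1 minus M2 1.06). TNFAIP3 (chr6:137867188-137883312, plus strand), the ubiquitin-editing inhibitor A20, had 247, 234 and 244 CPM in M1 and 15.5, 14.9 and 13.7 CPM in M2 (log2 difference 4.04 ± 0.06 SE, adjusted p = 1.42e-14). SOD2, mitochondrial superoxide dismutase, had 2131, 2008 and 1977 CPM in M1 and 193, 159 and 162 CPM in M2 (log2 difference 3.57 ± 0.09 SE, adjusted p = 4.4e-13). TRAF1, an adaptor of TNF receptors, had 35.1 ± 2.79 CPM in M1 against 2.94 ± 0.205 CPM in M2 (log2 3.58, adjusted p = 3.73e-11), and BIRC3, the inhibitor of apoptosis cIAP2, had 395 ± 28.8 CPM in M1 against 40.2 ± 8.12 CPM in M2 (log2 3.29, adjusted p = 9.66e-09). In the 4 genes each M1 library was above each M2 library, and in M2 they were under their M0 levels, 22.6 CPM in the case of TNFAIP3. TNFAIP3 overlaps AL357060.1 and SOD2 overlaps WTAP on the opposite strand.

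Listed cytokine and chemokine genes were higher in M1 in 19 of 21 cases (median log2 M1 minus M2 2.28). The list left out the chemokine CCL26, which was counted with the IL4 and IL13 response and had the largest log2 difference toward M2. CSF2, the growth factor GM-CSF, had 577 reads over the M1 libraries and 2 over the M2 libraries, a ratio of 250.01 with an exact 95% interval of 68.9 to 2069. CXCL8 (chr4:73740506-73743716, plus strand), a neutrophil chemoattractant, had 1121, 827 and 960.2 CPM in M1 and 34.9, 21.0 and 23.1 CPM in M2 (log2 difference 5.19 ± 0.26 SE, adjusted p = 6.92e-08). IL1B, interleukin 1 beta, had 1205, 1017 and 1139 CPM in M1 and 108, 114 and 101 CPM in M2 (log2 difference 3.38 ± 0.09 SE, adjusted p = 2.09e-13), and CXCL5, another neutrophil chemoattractant, had 1689, 1295 and 1388 CPM in M1 and 332, 275 and 292 CPM in M2 (log2 difference 2.28 ± 0.14 SE, adjusted p = 1.51e-09). None of these groups overlapped. CCL5, a T cell chemoattractant, had 11.3 ± 1.32 CPM in M1 against 0.375 ± 0.167 CPM in M2 (log2 4.93, adjusted p = 1.68e-09), and IL6 had 253 ± 30.1 CPM in M1 against 71.6 ± 5.17 CPM in M2 (log2 1.82, adjusted p = 1.41e-09). IL11, a cytokine of the IL6 family, was the member higher in M2, at 28.0, 20.1 and 23.5 CPM in M1 and 31.9, 29.7 and 29.3 CPM in M2 (log2 difference 0.34 ± 0.14 SE, adjusted p = 0.0182), and its call was lost without M1 replicate 2, M1 replicate 3 or M2 replicate 1 and without both second replicates (adjusted p = 0.0605 to 0.12).

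Several genes outside the interferon list were near absent in M2 and had a clear level in M1. Whether they respond to interferon was not tested. CTSS, cathepsin S, a lysosomal protease of antigen processing, had 17.98, 14.8 and 17.3 CPM in M1 and 0.0271, 0 and 0.107 CPM in M2 (log2 difference 8.48 ± 0.43 SE, adjusted p = 1.11e-10), which is 1808 against 4 reads. SERPINA9, a serine protease inhibitor, had 125 reads in M1 and 0 in M2, at least 36.1-fold higher against a floor of 3 reads over the group, with an exact 95% lower limit of 28.9 for the ratio. SLC7A2, a transporter of arginine and lysine, had 422 and 3 reads, a ratio of 122 (exact 95% interval 41.4 to 593), and RCSD1, an actin-capping regulator, had 154 and 2 reads, a ratio of 66.7 (18.2 to 556). In each of these the 3 M1 libraries were far above the M2 libraries. PDGFRL, DNAH17, FDCSP and the noncoding AL356234.2 differed by log2 5.08, 5.20, 4.99 and 5.35.

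**Figure D5:**
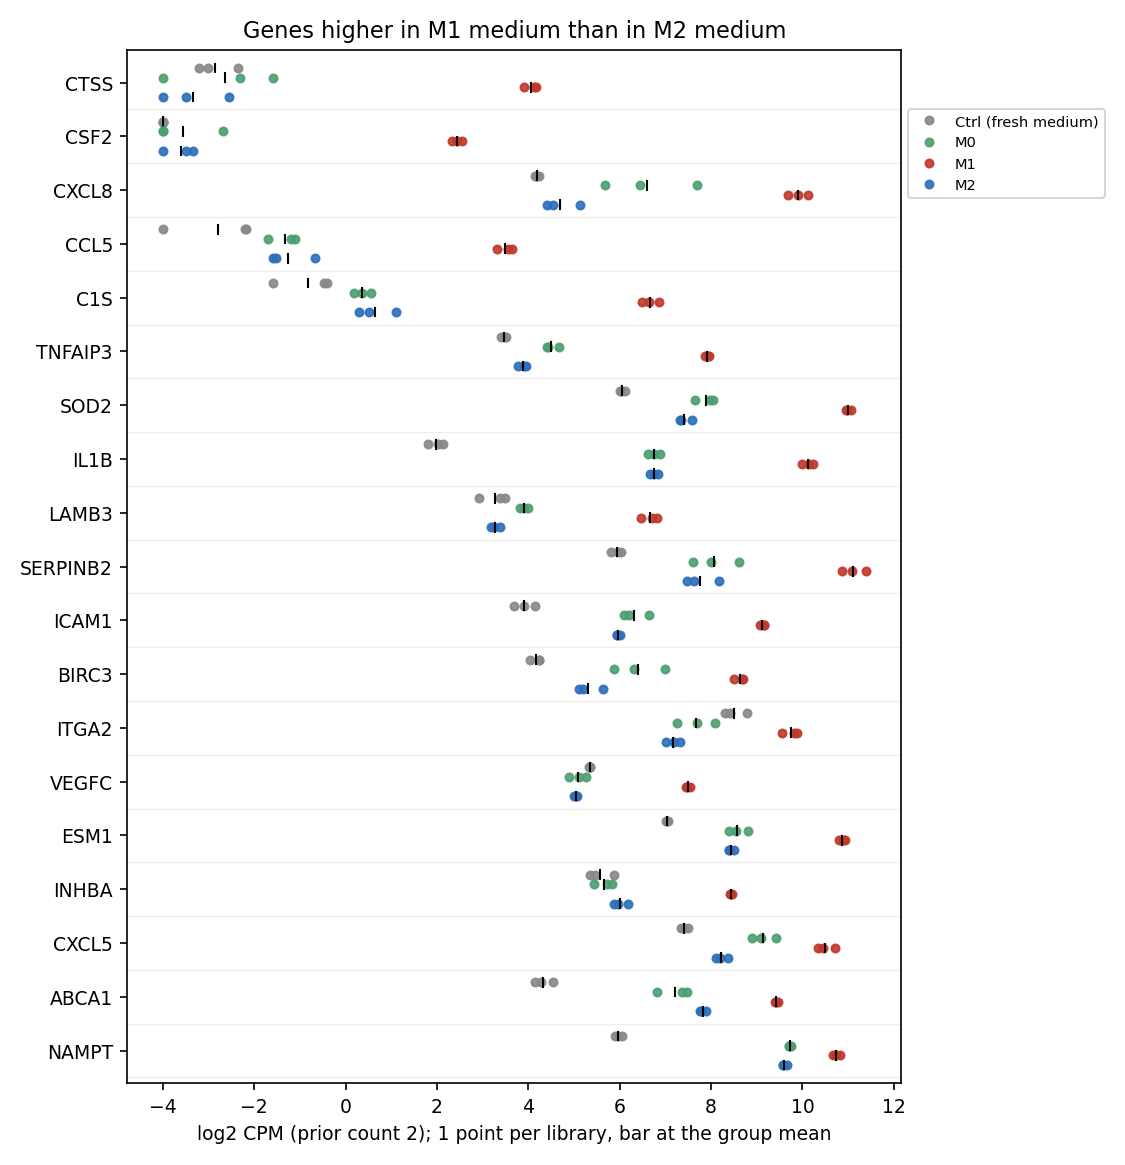
Log2 CPM (horizontal, prior count 2) of 19 genes higher in M1 than in M2, with 1 point per library and a bar at each group mean, coloured by medium. The red M1 points lie to the right of the blue M2 points in every row. The fitted log2 differences were 1.14 in NAMPT and 8.48 in CTSS. The prior count makes the drawn gap smaller than the fitted one where M2 reads are few, as in CTSS.

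Proteases and their inhibitors were higher in M1 in 19 of 30 cases, in M2 in 3 and not called in 8. SERPINB2, CTSS and SERPINA1, alpha-1 antitrypsin, led, SERPINA1 at 1.68 ± 0.0137 CPM in M1 against 0.0537 ± 0.0176 CPM in M2 (log2 4.87, adjusted p = 1.39e-07). TIMP1, an inhibitor of matrix metalloproteinases, was higher in M2 at 97.7, 79.8 and 106 CPM in M1 and 123, 129 and 122 CPM in M2 (log2 difference 0.40 ± 0.12 SE, adjusted p = 0.00787), and its call was lost without both second replicates (adjusted p = 0.11). CTSB lost its call without M1 replicate 1, M1 replicate 2, M1 replicate 3, M2 replicate 2 or M2 replicate 3, without both second replicates and with limma on the deposited values (adjusted p = 0.0558 to 0.226). MMP17 lost its call without M1 replicate 1, M1 replicate 2, M2 replicate 1, M2 replicate 2 or M2 replicate 3, with RLE scaling, with the 6 libraries alone and without both second replicates (adjusted p = 0.0509 to 0.193). The count toward M2 was 1 when M1 replicate 1, M1 replicate 2, M2 replicate 2 or M2 replicate 3 was left out alone, and 0 without both second replicates. ICAM1, the ligand of leukocyte integrins, had 569, 536 and 568 CPM in M1 and 61.1, 63.8 and 61.3 CPM in M2 (log2 difference 3.17 ± 0.04 SE, adjusted p = 2.77e-11), with no overlap. ESM1, an endothelial proteoglycan also made by tumours, had 1944, 1778 and 1886 CPM in M1 and 363, 337 and 335 CPM in M2 (log2 difference 2.44 ± 0.05 SE, adjusted p = 8.66e-12), and INHBA, the activin A subunit, had 348, 349 and 339.6 CPM in M1 and 73.0, 58.4 and 62.3 CPM in M2 (log2 difference 2.42 ± 0.10 SE, adjusted p = 9.19e-10). In M0 the levels were 385 ± 58.1 CPM for ESM1 and 50.8 ± 6.93 CPM for INHBA.

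Complement and coagulation genes were higher in M1 in 11 of 22 cases and in M2 in 1, and in 2 without M2 replicate 1. C1S and C1R, the proteases of the first complement component, had 102 ± 13.1 CPM in M1 against 1.54 ± 0.485 CPM in M2 (log2 6.01, adjusted p = 7.43e-13) and 50.1 ± 1.91 CPM in M1 against 4.79 ± 0.894 CPM in M2 (log2 3.38, adjusted p = 3.3e-12), and C3 had 14.3 ± 3.23 CPM in M1 against 1.25 ± 0.290 CPM in M2 (log2 3.49, adjusted p = 6.4e-09). The exception was C1QBP, a mitochondrial protein that binds C1q, at log2 0.30 toward M2. Cell death genes had 13 of 29 members higher in M1, none in M2 and 16 not called, with 1 higher in M2 without M1 replicate 3. MLKL, the effector of necroptosis, had 12.5, 11.01 and 10.8 CPM in M1 and 3.09, 3.33 and 4.11 CPM in M2 (log2 difference 1.71 ± 0.14 SE, adjusted p = 3.57e-08), and BMF, a BH3-only protein, had 13.9 ± 1.19 CPM in M1 against 5.68 ± 0.253 CPM in M2 (log2 1.30, adjusted p = 0.000146).

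Receptors of the TNF family were higher in M1 in 10 of 22 cases, in M2 in 2 and not called in 10. TNFRSF9, or 4-1BB, had 6.37, 4.86 and 5.70 CPM in M1 and 1.30, 1.45 and 1.22 CPM in M2 (log2 difference 2.09 ± 0.13 SE, adjusted p = 2.68e-07), and TNFRSF11B, the decoy receptor osteoprotegerin, had 2.65 ± 0.451 CPM in M1 against 0.489 ± 0.0570 CPM in M2 (log2 2.42, adjusted p = 3.41e-06). TNFRSF1A, the main TNF receptor, chosen after its values were seen, was not called, at 116, 112 and 124 CPM in M1 and 128, 134 and 130.0 CPM in M2 (log2 M1 minus M2 -0.15, 95% interval -0.28 to -0.02, adjusted p = 0.142). Its 3 M2 libraries lay above its 3 M1 libraries, and the interval, which uses only these 6 libraries, excluded 0 although the fit over all genes did not call it. TNFRSF12A, the TWEAK receptor, and LTBR, the lymphotoxin receptor, were higher in M2 at log2 0.45 and 0.36, and the LTBR call was lost without M2 replicate 1 (adjusted p = 0.0721). IRAK1, a kinase of interleukin 1 and Toll-like receptors, was higher in M2 at 312, 268 and 325 CPM in M1 and 517, 484 and 497 CPM in M2 (log2 difference 0.73 ± 0.09 SE, adjusted p = 2.35e-06), and MAP3K14, the kinase NIK of non-canonical NF-kB, chosen after its values were seen, at 5.96, 5.25 and 5.95 CPM in M1 and 15.5, 14.5 and 13.8 CPM in M2 (log2 difference 1.35 ± 0.08 SE, adjusted p = 4.36e-07). Those 2 signalling genes had no overlap between groups, and both stood opposite to the list of NF-kB regulators. MAP3K14 overlaps MAP3K14-AS1 on the opposite strand.

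Immune checkpoint genes had 7 of 20 members higher in M1 and none in M2, with 1 higher in M2 without M2 replicate 1 and 11 higher in M1 with no filter on low counts. CD274, or PD-L1, chosen after its values were seen, was not called, at 30.0, 29.3 and 28.4 CPM in M1 and 34.3, 31.4 and 34.2 CPM in M2 (log2 M1 minus M2 -0.19, 95% interval -0.32 to -0.05, adjusted p = 0.195). The groups did not overlap here either. NT5E, the ectoenzyme CD73, was higher in M1 at 867, 890.4 and 866 CPM in M1 and 495, 538 and 513 CPM in M2 (log2 difference 0.76 ± 0.04 SE, adjusted p = 1.37e-07). MICB, a ligand of the killer cell receptor NKG2D, was higher in M1 at 15.7 ± 0.253 CPM in M1 against 8.64 ± 0.647 CPM in M2 (log2 0.86, adjusted p = 7.44e-06).

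Cholesterol genes were higher in M1 in 11 of 27 cases, in M2 in 2 and not called in 14. The count toward M2 was 4 without M1 replicate 3, and also 4 with no filter on low counts. ABCA1, the cholesterol efflux pump, had 705, 682 and 676 CPM in M1 and 218, 218 and 238 CPM in M2 (log2 difference 1.61 ± 0.05 SE, adjusted p = 1.41e-07), with Ctrl at 20.05 ± 2.79 CPM. INSIG1, a brake on sterol synthesis, had 63.1 ± 3.62 CPM in M1 against 35.1 ± 1.43 CPM in M2 (log2 0.85, adjusted p = 1e-06). FASN, fatty acid synthase, was higher in M2 at 125, 93.1 and 155 CPM in M1 and 208, 176 and 199.8 CPM in M2 (log2 difference 0.65 ± 0.22 SE, adjusted p = 0.00167), as was PPARG, a nuclear receptor of fat storage, at 4.73 ± 0.275 CPM in M1 against 8.62 ± 0.747 CPM in M2 (log2 0.86, adjusted p = 0.000158), whereas PLIN2, a coat protein of lipid droplets, was higher in M1 at 343 ± 41.3 CPM in M1 against 197 ± 18.2 CPM in M2 (log2 0.80, adjusted p = 5.8e-06). Lysosome and autophagy genes were higher in M1 in 18 of 42 cases and in M2 in 3, which was 1 without M1 replicate 2, 1 without M2 replicate 3 and 1 without both second replicates. SQSTM1, the autophagy receptor p62, had 1754, 1638 and 1848 CPM in M1 and 822, 974 and 928 CPM in M2 (log2 difference 0.94 ± 0.09 SE, adjusted p = 3.5e-05), and FTH1, the ferritin heavy chain, had 859 ± 37.2 CPM in M1 against 385 ± 37.3 CPM in M2 (log2 1.16, adjusted p = 1.47e-06). Both were higher in all M1 libraries, and both overlap other genes on the opposite strand.

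Interferon genes were among those with the largest differences toward M1. The pseudogene GBP1P1 of the guanylate-binding protein family was seen in 129 reads of M1 and 0 of M2, at least 37.3-fold higher against a floor of 3 reads over the group, with an exact 95% lower limit of 29.9 for the ratio. IFI44L had 139, 156 and 151 CPM in M1 and 0.841, 0.497 and 0.358 CPM in M2 (log2 difference 7.97 ± 0.33 SE, adjusted p = 1.42e-14) and GBP5, an antimicrobial GTPase, had 38.4 ± 2.42 CPM in M1 against 0.128 ± 0.0543 CPM in M2 (log2 8.18, adjusted p = 6.72e-13). Without polarization or macrophages IFI44L had 0.651 ± 0.172 CPM in M0 and 0.725 ± 0.153 CPM in Ctrl.

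Genes of the dedifferentiated melanoma state did not move as 1 group, with 4 of 22 higher in M2, 7 in M1 and 11 not called. TNC and AXL were higher in M2, as was ANPEP, aminopeptidase N, at 693 ± 81.0 CPM in M1 against 904 ± 42.8 CPM in M2 (log2 0.38, adjusted p = 0.00139). WNT5A, a noncanonical WNT ligand, was higher in M1 at 95.2, 79.6 and 89.0 CPM in M1 and 47.0, 44.6 and 47.5 CPM in M2 (log2 difference 0.92 ± 0.08 SE, adjusted p = 0.000238), and SNAI2, a factor of epithelial-mesenchymal transition, at 122 ± 5.26 CPM in M1 against 78.9 ± 2.34 CPM in M2 (log2 0.63, adjusted p = 5.01e-06). Of 10 tested melanocyte lineage genes 4 were higher in M2, among them MC1R, the melanocortin receptor, at log2 0.41, whose call was lost without M2 replicate 1 (adjusted p = 0.0704), and 1 was higher in M1. The count toward M2 was 2 without M1 replicate 3, 2 without M2 replicate 1, 2 without M2 replicate 3, 1 without both second replicates and 2 with no filter on low counts. MITF, the lineage's main transcription factor, was low and not called, at 2.18 ± 0.259 CPM in M1 and 2.16 ± 0.185 CPM in M2.

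Genes with values above that also overlap a gene on the opposite strand, so that their reads cannot be told apart here, are ABCA1, BHLHE40, C1QBP, C1S, CCNE2, CTGF, DNAH17, DNAJB9, GDNF, ICAM1, IL6, INHBA, ITGA6, ITGB8, JUNB, LAMA5, LTBR, MC1R, MYLK, NAMPT, P4HA2, PDGFRL, PYCR1, SEMA6D, TGM2, TNFRSF12A, VIM, WARS and ZFHX4-AS1.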

How the data were processed

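RNA was sequenced from MV3 cells, and the 3 M1 and 3 M2 libraries were compared. Libraries kept the strand of the mRNA and gave single reads of 50 nt, per the labels' protocols. The submitters' processing notes name Trimmomatic 0.36, STAR 2.5.4b, DESeq2 1.20.0 and build hg38. How reads were counted, with which strand option and annotation, is not given in the sources used here, so genes that overlap on opposite strands cannot be told apart. The authors deposited raw read counts for 58288 gene identifiers, and a variance-stabilized table whose log2 values served for 1 alternative test alone. Gene names came from the deposited table, and coordinates from GENCODE 29 (58025 identifiers matched).

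Genes were tested with edgeR 4.0.16 (R 4.3.3), quasi-likelihood F test on the counts of all 12 libraries with group means, TMM scaling, a low-count filter (filterByExpr, 10 reads and 15 in total) and a threshold of 0.05 on the Benjamini-Hochberg adjusted p. Including M0 and Ctrl gives a shared estimate of the spread. Levels are TMM-scaled CPM, as mean ± SD with n = 3. The SE beside a log2 difference comes from the spread of log2 CPM (prior count 2) over the 3 libraries of each medium, which is not the estimate behind the difference itself, and 95% intervals use that SE. A count of 0 allows up to 3 counts, 0.0761 to 0.107 CPM in a library, and read ratios and floors cover counting error only. On counts simulated for M1 against M2 over 13846 genes, 85.4% of 96 genes changed by log2 1 and 61.2% of 98 changed by log2 0.5 were recovered, with 5 false calls. The simulation gave every gene the same dispersion and held no outlying library, so these shares may not hold for the real counts.

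Named genes were, among called genes without overlap between groups and with 1 CPM or more, the 15 with the largest log2 difference toward M2, the 10 toward M1 outside the interferon list and 3 on it, the 8 and 5 with the largest CPM gap, up to 3 members per list and direction, and 12 fixed by name. Others are marked as chosen after their values were seen. EGFR and MITF were read as cell type markers. The members and the 44 lists were chosen with earlier results of these data known. Alternatives were DESeq2 1.42.0, RLE scaling, no filter, the 6 libraries alone, a replicate block, each replicate left out, limma 3.58.1 on the deposited log2 values, and, chosen after seeing the data, both second replicates left out.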

Additional observations from a re-analysis of the deposited data

How the results depend on the processing

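Counts of called genes kept within 1.5 times of those reported in every alternative run except 2. Genes higher in M2 numbered 1528 to 2013 with single libraries left out (1528 without M2 replicate 1, also outside the interferon list, where the highest was 2012), and genes at 2-fold or more toward M2 numbered 77 with limma on the deposited log2 values (also 77 outside the interferon list); the cause was not tested. DESeq2 called 2232 genes higher in M2 and 2444 in M1, sharing 2216 and 2188 with those reported. Relative to TMM, RLE scaling moved the median log2 difference from -0.0255 to -0.0100. Replicate numbers in the labels are shared by M1 and M2. Deviations from the group means correlated at 0.148, 0.154 and 0.0517 in same-numbered libraries. In differently numbered libraries the correlations were lower, at -0.143 to 0.0435. Whether the numbers pair the samples is not in the labels, and the main fit did not pair them. With a replicate block the fit called 2465 genes higher in M2 and 2287 in M1. Of 250 named genes none changed direction in these alternatives, 8 to 25 lost their call with 1 library left out, 23 without both second replicates and none with the replicate block. Most of them were chosen from these same libraries as called without overlap, so the unchanged direction was nearly fixed by that choice. With no filter on low counts 4 genes of the IL4 and IL13 response were higher in M2 and 5 YAP and TEAD genes higher in M1, and with the replicate block 4 cholesterol genes were higher in M2. Genes with few reads, CCL26 and CISH among them, carry the least depth.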

Other observations

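Among genes at 2-fold or more toward M2 that were chosen after their values were seen, 3 encode regulators of transcription or calcineurin and 1 a membrane scaffold. FOXD1, a forkhead factor, had 130.4, 119 and 125 CPM in M1 and 255, 252 and 263 CPM in M2 (log2 difference 1.04 ± 0.04 SE, adjusted p = 1.13e-09), and TOX2, an HMG-box factor, had 63.0, 58.7 and 73.0 CPM in M1 and 131, 133 and 139 CPM in M2 (log2 difference 1.05 ± 0.10 SE, adjusted p = 4.69e-08). RCAN1, an inhibitor of calcineurin, had 53.4, 53.2 and 51.1 CPM in M1 and 119.9, 101 and 106 CPM in M2 (log2 difference 1.05 ± 0.08 SE, adjusted p = 6.92e-08), and CAV1, the main protein of caveolae, had 129, 141 and 128 CPM in M1 and 266, 269 and 271 CPM in M2 (log2 difference 1.02 ± 0.04 SE, adjusted p = 2.5e-08). None of these groups overlapped. In Ctrl, CAV1 stood at 812 ± 41.9 CPM, above both media, while FOXD1, TOX2 and RCAN1 in Ctrl were below all their M1 libraries.

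Some genes with large differences toward M1 lie beside each other. SLC7A2 and PDGFRL, which had 3.88 ± 0.710 CPM in M1 against 0.0328 ± 0.00491 CPM in M2 and 1.58 ± 0.334 CPM in M1 against 0.0446 ± 0.0232 CPM in M2, are 5.86 kb apart on chromosome 8. AL356234.2, at 1.91 ± 0.227 CPM in M1 against 0.0446 ± 0.0232 CPM in M2, lies 167 kb from TNFAIP3 on chromosome 6. PTGS2, the inducible prostaglandin synthase, was higher in M1 at 70.6, 37.4 and 53.2 CPM in M1 and 14.1, 8.62 and 10.2 CPM in M2 (log2 difference 2.28 ± 0.34 SE, adjusted p = 0.000719), and KCNJ15, a potassium channel, at 21.2, 18.7 and 20.9 CPM in M1 and 1.71, 1.60 and 1.75 CPM in M2 (log2 difference 3.59 ± 0.07 SE, adjusted p = 5.33e-12), without overlap in either. FBXO32, a ubiquitin ligase subunit known from muscle atrophy, was higher in M1 at 120.3, 132 and 123 CPM in M1 and 26.4, 27.7 and 27.6 CPM in M2 (log2 difference 2.204 ± 0.05 SE, adjusted p = 1.02e-11).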
